A study of Mus musculus with 12 samples.

Results

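The BCL2 family of apoptosis was examined through 10 genes chosen by their symbols: the antiapoptotic Bcl2, Bcl2l1 and Mcl1, the effectors Bax and Bak1, and the BH3-only genes Bcl2l11, Bid, Bbc3, Pmaip1 and Bmf. All 10 were listed in both count tables, which held 13948 and 35556 different symbols and had 13625 in common. The cells were splenic CD8+ T cells of OT-I mice, which carry a transgenic receptor for an ovalbumin peptide. They were expanded with antibodies to CD3e and CD28 and with IL-2, together with either all-trans retinoic acid at 5 ng/mL (group ATRA), a ligand of nuclear receptors, or an equal volume of the solvent DMSO (group CTRL). After 5 more days in culture, all cells spent 72 h at 1% O2 with GL261, a mouse glioma line made to express ovalbumin, without added ATRA. Live CD45.2+ cells were sorted either then (CTRL and ATRA) or after another 24 h with anti-CD3e antibody (restimulated CTRL and restimulated ATRA). Each of the 4 groups had 3 libraries. Every group, CTRL included, carries the transgenic receptor and went through the glioma co-culture, so none shows the genes in resting or unexposed T cells.

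Proteins of the family control permeabilisation of the outer mitochondrial membrane, the step that releases cytochrome c and starts the caspase cascade. BAX and BAK form the pores, BCL2, BCL-XL and MCL1 hold them in check, and the BH3-only proteins either block these guardians or activate the effectors. In T cells, BCL2 and MCL1 sustain survival under cytokines such as IL-7, BCL-XL is induced by costimulation, and BIM, the product of Bcl2l11, is a main mediator of the death of activated cells once stimulation or cytokine ends.

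The promoters of 4 members are shown because these members carried the main differences below and, for 3 of them, because a searched motif was found. The sequences are RefSeq windows on build GRCm38.p6, which is older than the build of the count tables, and are cut to the 250 bases before a start site. Each is printed 5′ to 3′ on the strand of the gene, and capitals mark a motif match. Bcl2l11 (start 1 of 2, plus strand) is shown from chr2:128125788-128126037, Bbc3 (start 2 of 3, plus strand) from chr7:16310011-16310260, Bcl2l1 (start 3 of 3, minus strand) from chr2:152828490-152828739 and Bcl2 (its 1 listed start, minus strand) from chr1:106714291-106714540.
Bcl2l11: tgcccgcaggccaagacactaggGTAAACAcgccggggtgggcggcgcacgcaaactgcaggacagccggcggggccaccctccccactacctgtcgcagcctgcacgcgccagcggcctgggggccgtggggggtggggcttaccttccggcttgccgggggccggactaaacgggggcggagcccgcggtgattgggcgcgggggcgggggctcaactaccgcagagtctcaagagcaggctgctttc
Bbc3: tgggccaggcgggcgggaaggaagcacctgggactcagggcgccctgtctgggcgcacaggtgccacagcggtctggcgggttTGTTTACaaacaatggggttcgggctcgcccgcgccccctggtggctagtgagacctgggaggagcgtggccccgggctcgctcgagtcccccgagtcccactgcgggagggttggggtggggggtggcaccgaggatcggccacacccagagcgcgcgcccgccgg
Bcl2l1: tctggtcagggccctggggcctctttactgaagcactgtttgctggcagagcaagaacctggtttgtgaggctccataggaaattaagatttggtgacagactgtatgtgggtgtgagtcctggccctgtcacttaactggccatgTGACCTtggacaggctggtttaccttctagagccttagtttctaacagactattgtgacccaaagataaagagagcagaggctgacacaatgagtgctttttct
Bcl2: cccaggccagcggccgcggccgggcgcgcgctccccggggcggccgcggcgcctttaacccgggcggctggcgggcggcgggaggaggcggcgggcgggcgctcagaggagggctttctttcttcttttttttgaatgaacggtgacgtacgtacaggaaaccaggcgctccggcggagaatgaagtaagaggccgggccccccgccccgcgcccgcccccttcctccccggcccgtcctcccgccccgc
The capitals in Bcl2l11 and Bbc3 are the forkhead core TGTTTAC, read on the opposite strand as GTAAACA in Bcl2l11. It began 227 bases before the Bcl2l11 start site and 167 bases before that of Bbc3, and 3.65% of 32851 mouse promoter windows of 300 bases held it on either strand. Those in Bcl2l1 are the retinoid half-site AGGTCA, read as TGACCT, 104 bases before the start site. Of all windows, 16.3% held this half-site, and Bmf was the other searched member with a match. GC content of the printed bases was 72.0% in Bcl2l11, 72.4% in Bbc3 and 74.8% in Bcl2, against 48.4% at this start of Bcl2l1. Windows of 9 of the 10 members were searched (16 windows). Any window of Pmaip1 was left out of the search, so the matches do not cover this member. None of the 16 held TTCNNNGAA (a STAT pair), TGANTCA (AP-1), TGATGNAA (an ATF4 and CHOP composite) or an NF-kB motif, which 8.30%, 7.81%, 3.97% and 0.411% of all windows held. These matches describe the letters only.

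Total counts ran from 23558244 to 26111497 in the co-cultured libraries and from 16288111 to 20115836 in the restimulated ones. Within groups, Pearson correlations of log2 CPM across genes were 0.976 to 0.994, except in ATRA, where replicate 3 reached only 0.948 and 0.962 with the others; CTRL replicate 1 also stood apart from CTRL replicates 2 and 3 (0.978 and 0.980 against 0.994). The restimulated libraries come from other batches and another count table, so restimulation, batch set and table cannot be told apart. Whether replicates are different mice, cultures or repeats of 1 preparation is not in the labels, and the p-values reflect the variation among libraries alone. Summed T cell markers (7 of 8 listed before restimulation, all 8 after, each with counts) were 2090 to 3188 CPM in all libraries. A list of 9 glioma markers (8 listed before restimulation) summed to 885 to 962 CPM in CTRL, 1395 to 1561 in ATRA, 850 to 1047 in restimulated CTRL and 986 to 1045 in restimulated ATRA. Vim, which T cells also express, made up 85.0% to 94.2% of these sums, and Sparc and Cspg4 were at 0 in restimulated ATRA. A list of 6 dendritic cell markers (3 listed before restimulation) summed to 10.7 to 15.3, 4.12 to 7.55, 19.3 to 53.6 and 70.3 to 71.5 CPM in the same order. Itgax, which activated T cells also express, made up 93.7% and 96.0% of it after restimulation, Siglech was at 0 in both restimulated groups, and Clec9a was at 0 in restimulated ATRA. Markers of NK cells summed to 9.67 to 42.2 CPM over all libraries, of CD4 T cells to 18.2 to 76.3 (mainly Zbtb7b), of B cells to 4.15 to 16.6 and of monocytes and macrophages to 11.6 to 24.2 (mainly Cd68). The part of these marker differences in the results below was not tested. In bulk RNA, fewer cells of a type and less RNA per cell cannot be told apart.

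Before restimulation, RNA of 2 members was higher in ATRA than in CTRL, the antiapoptotic Bcl2 and the BH3-only gene Bbc3, and of none was it lower, where 33.6% of 12111 genes passed the test (18.1% higher, 15.5% lower). Both calls were lost with the batch as a block (adjusted p = 0.0581 and 0.0612) and without certain single libraries, as given for each gene below. After restimulation, Bcl2l11, Bcl2l1, Pmaip1 and Mcl1 were higher in ATRA, and Bid and Bcl2 were lower, where 62.6% of 12783 genes passed (31.8% higher, 30.8% lower). The largest differences were 4.99-fold for Bcl2l11 and 2.31-fold for Bcl2l1, both after restimulation, and 2.32-fold for Bcl2, before it. Levels are counts scaled to the library total (CPM), with TMM factors computed within each count table unless said otherwise, and fold changes are log2 of ATRA over CTRL with an adjusted p under 0.05 as the threshold.

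Counted as a list, 2 of 10 members were called before restimulation by edgeR, a smaller share than of all genes, and 3 of 10, Bax being the other, had an unadjusted p under 0.05, as did 5752 of all 12111 genes. After restimulation 6 of the 9 that passed the filter on low counts were called. The interaction was called for 5 of 10 members, 3 positive (Bcl2l1, Mcl1 and Bcl2l11) and 2 negative (Bcl2 and Bid), against 49.2% of 12364 genes (23.6% positive, 25.5% negative). These shares after restimulation and for the interaction are close to those of all genes. ATRA and CTRL libraries did not overlap for 3 of 10 members before restimulation (57.0% of genes) and for 6 of 9 after it (68.8% of genes). The median log2 fold change of the members was -0.03 before restimulation and 0.15 after it, beside 0.01 and 0.02 over all genes tested.

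**Figure D1:**
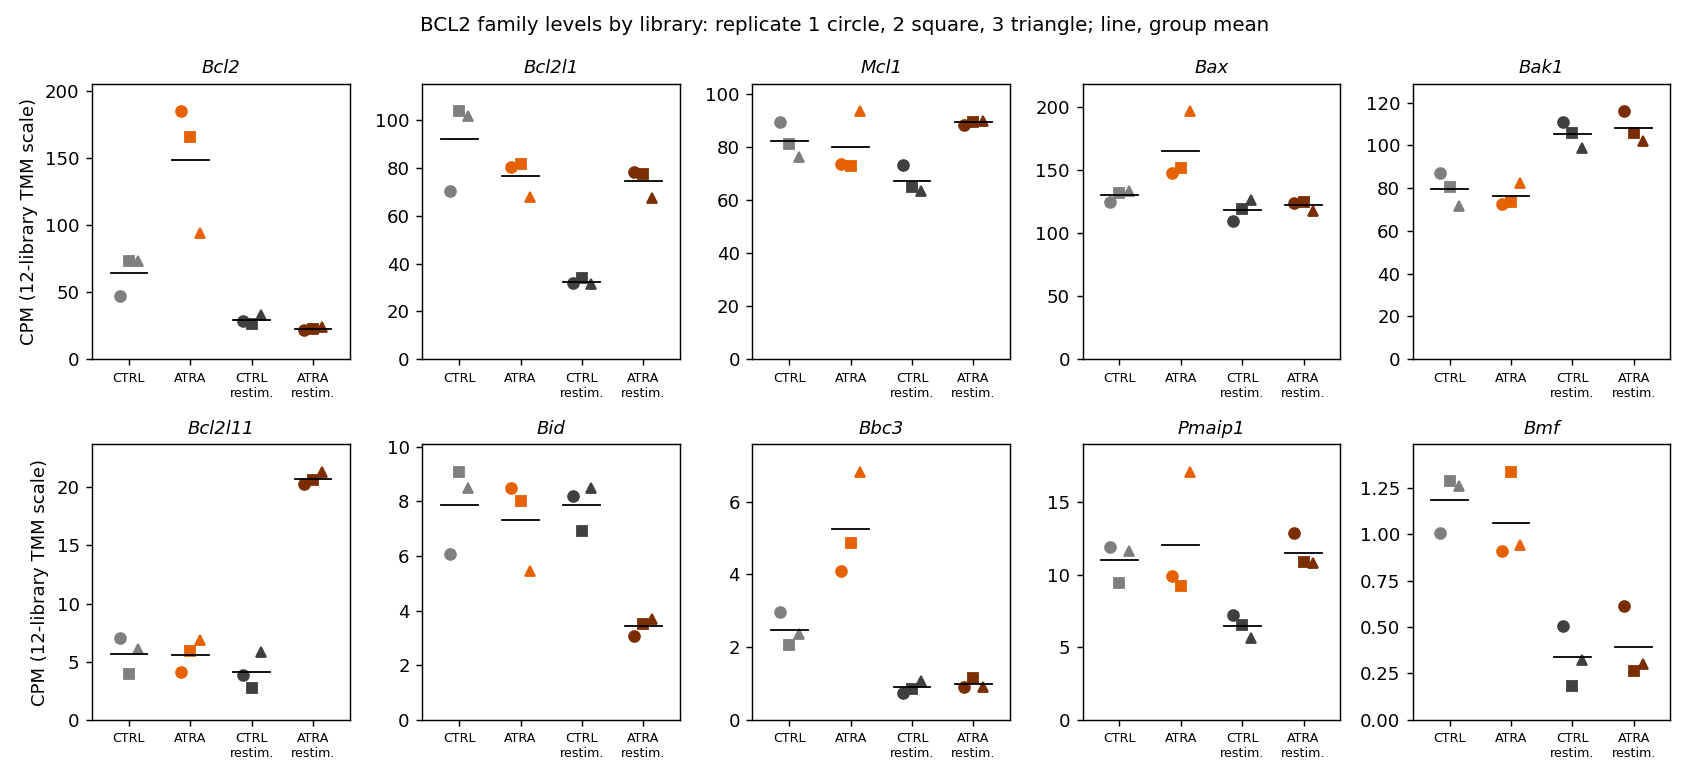
Level of each of the 10 members in every library (CPM, TMM-scaled over all 12 libraries, linear axes from 0, each gene on its own axis), by group, with 1 point per library and a line at the group mean. Bcl2l11 averages 20.8 CPM in restimulated ATRA, and those 3 libraries lie above the other 9.

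Bcl2 encodes the guardian that gave the family its name. Its level was 43.7, 68.0 and 68.0 CPM in CTRL replicates 1, 2 and 3, and 174, 157 and 86.1 CPM in ATRA. Every ATRA library lay above every CTRL library, but ATRA replicate 3 was far closer to CTRL than the others. The group means were 59.9 ± 14.1 and 139 ± 46.7 CPM (SD, n = 3 each). Bcl2 was 2.32-fold higher in ATRA (log2 fold change 1.21, SE 0.30, 95% interval 0.50 to 1.93, adjusted p = 0.0237). Within the batches that pair same-numbered libraries, the log2 difference was 2.00, 1.20 and 0.34. The call ended with batch as a block (1.18, adjusted p = 0.0581) and on leaving out CTRL replicate 1, 2 or 3 or ATRA replicate 1 or 2 (1.02 to 1.31, adjusted p = 0.0504 to 0.0715). Without CTRL replicate 1 and ATRA replicate 3 together the log2 fold change was 1.29 (adjusted p = 3.4e-10). That setting keeps only CTRL replicates 2 and 3 and ATRA replicates 1 and 2. These are the most alike libraries of each group (r = 0.994 and 0.990), so the spread is small by selection and the p-value adds no support.

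After restimulation, Bcl2 stood at 28.6, 25.7 and 32.8 CPM in CTRL and at 21.6, 22.3 and 24.0 CPM in ATRA. The order of the groups was thus the opposite of that before restimulation, again with no overlap, though the gap was small. The means were 29.0 ± 3.55 and 22.6 ± 1.28 CPM (SD, n = 3 each), and the log2 fold change was -0.36 (SE 0.12, adjusted p = 0.0195). This call ended without restimulated CTRL replicate 3 (-0.27, adjusted p = 0.0619), ATRA replicate 1 (-0.32, adjusted p = 0.0759) or ATRA replicate 2 (-0.35, adjusted p = 0.0594), and in the deposited TPM values (-0.13 on the log2(TPM + 1) scale, adjusted p = 0.456), where the groups overlapped. The ATRA effect on Bcl2 differed between the states (interaction term on all 12 libraries -1.57, SE 0.33, adjusted p = 0.00211).

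Bcl2l1 encodes BCL-XL. Before restimulation its level was 65.8, 96.7 and 95.0 CPM in CTRL and 75.8, 77.3 and 62.5 CPM in ATRA. These ranges overlapped, with CTRL replicate 1 as low as the ATRA libraries, and the log2 fold change of -0.26 (95% interval -0.68 to 0.16) did not pass (adjusted p = 0.284). Without CTRL replicate 1 and ATRA replicate 3 it did (-0.32, adjusted p = 0.000403), again with a spread made small by selection. After restimulation the level was 31.9, 33.7 and 31.2 CPM in CTRL and 78.7, 77.4 and 67.9 CPM in ATRA. All 3 ATRA libraries were far above all 3 CTRL libraries, and the spread within both groups was small (32.3 ± 1.30 and 74.7 ± 5.88 CPM, SD, n = 3 each). Bcl2l1 was 2.31-fold higher in ATRA (log2 fold change 1.21, SE 0.10, adjusted p = 4.2e-07), with 1.30, 1.20 and 1.12 within the batches. The effect differed between the states (interaction 1.46, SE 0.20, adjusted p = 9.2e-05).

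Mcl1 encodes a short-lived guardian that is turned over by the proteasome. Before restimulation its level was 83.4, 75.7 and 71.2 CPM in CTRL and 69.1, 68.6 and 85.8 CPM in ATRA, with ATRA replicate 3 the highest of the 6. The groups overlapped (log2 fold change -0.04, 95% interval -0.34 to 0.26, adjusted p = 0.811). After restimulation the level was 72.9, 64.7 and 63.2 CPM in CTRL and 88.6, 89.6 and 90.4 CPM in ATRA, with no overlap. Mcl1 was 1.34-fold higher in ATRA (log2 fold change 0.42, SE 0.08, adjusted p = 0.000639). The interaction was 0.46 (SE 0.16, adjusted p = 0.0294). It missed the threshold with the batch block (0.47, adjusted p = 0.0673) and on leaving out any 1 of 8 libraries (adjusted p = 0.0521 to 0.0755): CTRL replicate 1, ATRA replicate 1 or 2, restimulated CTRL replicate 2 or 3, or any restimulated ATRA replicate.

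The effectors differed little. Bax, which moves from the cytosol to mitochondria on activation, stood at 117, 122 and 124 CPM in CTRL and at 139, 143 and 180 CPM in ATRA before restimulation. The groups did not overlap, and ATRA replicate 3 was the highest, but the log2 fold change of 0.35 (SE 0.12, 95% interval 0.05 to 0.64) missed the threshold (adjusted p = 0.0692). Without ATRA replicate 3 it was 0.22 and passed the test (adjusted p = 0.0372). After restimulation Bax stood at 109, 119 and 126 CPM in CTRL and at 124, 125 and 118 CPM in ATRA, with overlap (log2 fold change 0.05, adjusted p = 0.570). Bax overlaps the protein-coding Gm45808 on the same strand, which was higher in restimulated ATRA (1.19, adjusted p = 0.0390). How reads were split between these genes was not tested. Bak1, whose product resides in the mitochondrial membrane, stood at 66.8 to 81.2 CPM in the 6 libraries before restimulation and at 98.5 to 116 CPM in the 6 after it. Its ATRA and CTRL libraries overlapped in both states (log2 fold changes -0.06, adjusted p = 0.677, and 0.04, adjusted p = 0.640). Neither effector passed the interaction test (Bax -0.30, adjusted p = 0.121; Bak1 0.10, adjusted p = 0.566).

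Bcl2l11 encodes BIM, a BH3-only protein that binds all the guardians. Before restimulation its level was 6.60, 3.63 and 5.69 CPM in CTRL and 3.86, 5.55 and 6.26 CPM in ATRA. The groups overlapped almost fully (log2 fold change -0.02, 95% interval -0.73 to 0.69, adjusted p = 0.957). After restimulation its level was 3.87, 2.75 and 5.81 CPM in CTRL and 20.3, 20.7 and 21.4 CPM in ATRA. The lowest ATRA library was far above the highest CTRL library, and the ATRA libraries lay close to each other (4.14 ± 1.55 and 20.8 ± 0.569 CPM, SD, n = 3 each). Bcl2l11 was 4.99-fold higher in ATRA (log2 fold change 2.32, SE 0.23, 95% interval 1.82 to 2.82, adjusted p = 2.9e-06), with 2.39, 2.91 and 1.88 within the batches. The interaction was 2.34 (SE 0.41, adjusted p = 0.000531).

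Bid encodes the BH3-only protein that caspase-8 cleaves, which links death receptors to mitochondria. Before restimulation its level was 5.66, 8.45 and 7.90 CPM in CTRL and 7.99, 7.57 and 5.01 CPM in ATRA, with overlap (log2 fold change -0.10, adjusted p = 0.785). After restimulation it was 8.19, 6.91 and 8.49 CPM in CTRL and 3.08, 3.51 and 3.71 CPM in ATRA. Every restimulated ATRA library lay below all the other 9. Bid was 2.29-fold lower in ATRA (log2 fold change -1.19, SE 0.21, adjusted p = 0.00039), with -1.41, -0.98 and -1.19 within the batches, and the interaction was -1.10 (SE 0.31, adjusted p = 0.0114). Bid overlaps Bcl2l13 on the opposite strand (as Bak1 does Ggnbp1 and Bcl2 an antisense transcript), and the strand setting of the counting is not stated in the labels. Bcl2l13 itself had a log2 fold change of -0.06 after restimulation (adjusted p = 0.604).

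Bbc3 encodes PUMA, a BH3-only target of p53 and of FOXO factors. Before restimulation its level was 2.77, 1.91 and 2.20 CPM in CTRL (51 to 71 counts) and 3.86, 4.59 and 6.26 CPM in ATRA (99 to 145 counts). The groups did not overlap, and ATRA replicate 3, the library nearest to CTRL for Bcl2, was the farthest from it for Bbc3. Bbc3 was 2.13-fold higher in ATRA (log2 fold change 1.09, SE 0.28, adjusted p = 0.0254), with 0.48, 1.27 and 1.51 within the batches. The call ended with the batch block (1.08, adjusted p = 0.0612) and without CTRL replicate 2 (0.96, adjusted p = 0.0986), CTRL replicate 3 (1.06, adjusted p = 0.0980) or ATRA replicate 2 (1.14, adjusted p = 0.0682). After restimulation Bbc3 stood at 0.730, 0.856 and 1.08 CPM in CTRL and at 0.896, 1.15 and 0.903 CPM in ATRA, with overlap and only 13 to 22 counts a library. Its log2 fold change of 0.15 had a large error (SE 0.44, adjusted p = 0.789). In the deposited TPM values the groups did not overlap (1.54 to 1.93 in CTRL, 2.22 to 3.91 in ATRA), and the difference of 0.50 on the log2(TPM + 1) scale did not pass (adjusted p = 0.0777), and the interaction was -0.95 (SE 0.43, adjusted p = 0.0832).

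Pmaip1 encodes NOXA, which binds MCL1. Before restimulation its level was 11.1, 8.75 and 10.8 CPM in CTRL and 9.36, 8.71 and 15.7 CPM in ATRA, where replicate 3 stood alone (log2 fold change 0.13, adjusted p = 0.709). After restimulation it was 7.24, 6.48 and 5.64 CPM in CTRL and 12.9, 10.9 and 10.9 CPM in ATRA, with no overlap. Pmaip1 was 1.79-fold higher in ATRA (log2 fold change 0.84, SE 0.18, adjusted p = 0.00142), with 0.83, 0.75 and 0.95 within the batches. Its interaction was 0.70 (SE 0.32, adjusted p = 0.0933), and 1.03 (adjusted p = 0.00214) without ATRA replicate 3. Bmf, whose product is held at the cytoskeleton, gave 20 to 32 counts in a co-cultured library and 3 to 11 in a restimulated one, against a floor of 3 counts. Its log2 fold change was -0.15 before restimulation (adjusted p = 0.737), and after it Bmf did not pass the filter on low counts.

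**Figure D2:**
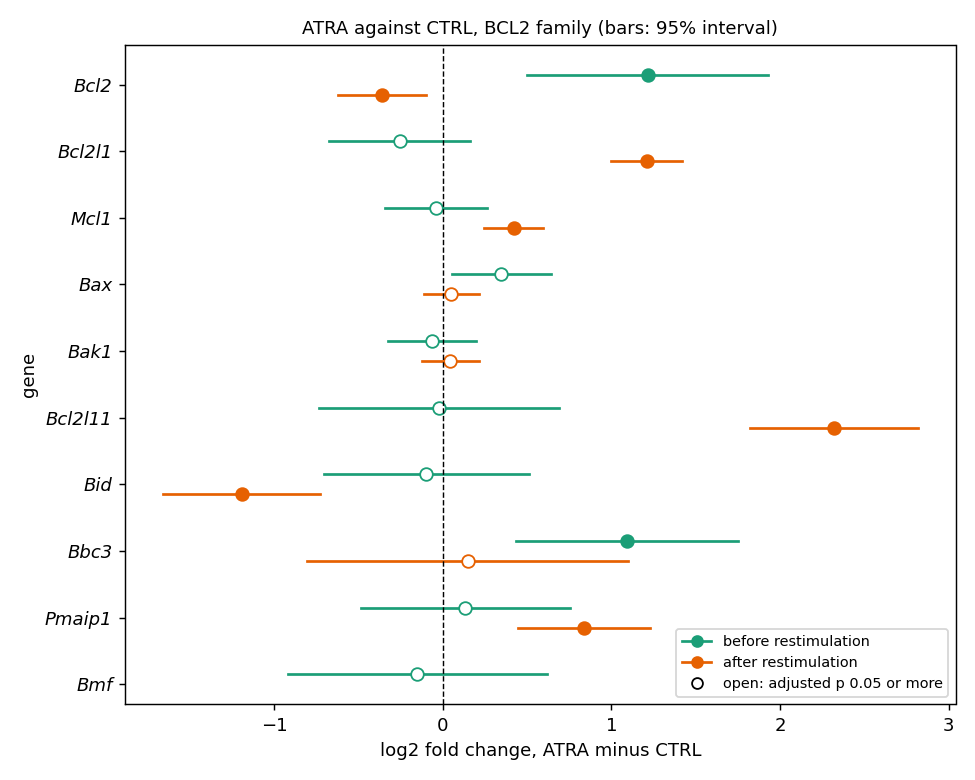
Log2 fold change of ATRA over CTRL for each member before and after restimulation, with 95% intervals from edgeR, and filled points for calls (adjusted p under 0.05). Bcl2 lies above 0 before restimulation (1.21) and below 0 after it (-0.36), while Bcl2l11 and Bcl2l1 lie near 0 before and at 2.32 and 1.21 after.

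The levels of Bcl2 and Bcl2l11 in the same library were also set side by side, as BCL2 binds BIM. In CTRL there were 6.62, 18.8 and 11.9 Bcl2 counts per Bcl2l11 count, and in ATRA 45.1, 28.2 and 13.8. After restimulation the ratio was 7.39, 9.36 and 5.65 in CTRL, and 1.06, 1.08 and 1.12 in ATRA. The 3 restimulated ATRA libraries were thus the only ones with nearly equal counts of both genes, and ATRA replicates 1 and 2 before restimulation held the highest ratios, while ATRA replicate 3 lay within the CTRL range. The ratio is of counts, not scaled for transcript length, and was not tested.

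**Figure D3:**
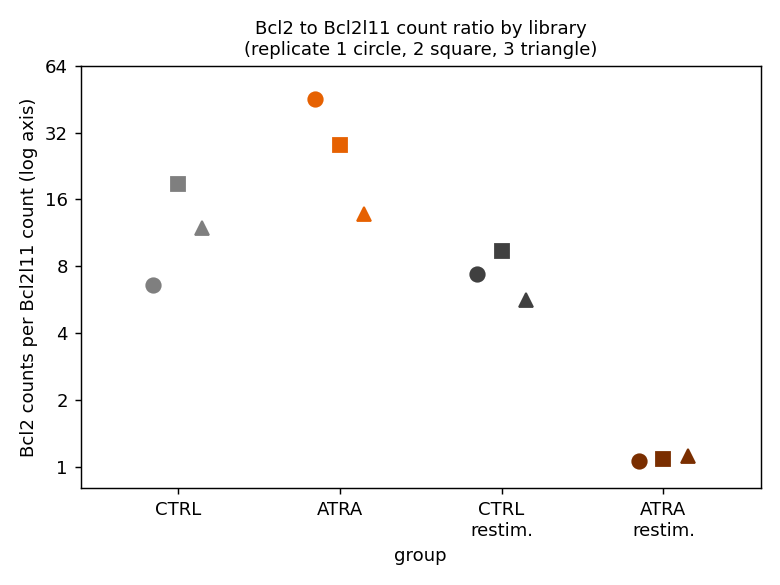
Bcl2 counts per Bcl2l11 count in each of the 12 libraries (log axis), by group, with 1 symbol for each replicate number. The restimulated ATRA libraries sit at 1.06 to 1.12 and all others at 5.65 or more.

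The change with restimulation was compared within each treatment. These comparisons use the same libraries as those of ATRA against CTRL and are given side by side with them, not as further evidence. In CTRL, Bak1 rose (log2 change 0.40, adjusted p = 0.00836). Bcl2 (-1.14, adjusted p = 0.0033), Bcl2l1 (-1.51, adjusted p = 1.15e-05), Bbc3 (-1.46, adjusted p = 0.00339), Pmaip1 (-0.76, adjusted p = 0.0244) and Bmf (-1.78, adjusted p = 0.0133) fell. The 6 called members of 10 compare with 32.5% of 12364 genes (15.9% higher, 16.6% lower), and the median log2 change was -0.61 beside 0.02 over all genes. The calls of Pmaip1 and Bmf both ended without restimulated CTRL replicate 2 (adjusted p = 0.0598 and 0.0540). That of Pmaip1 also ended without CTRL replicate 1, CTRL replicate 3 or restimulated CTRL replicate 3 (adjusted p = 0.0652 to 0.0848).

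In ATRA, Bcl2l11 (1.89, adjusted p = 0.000122) and Bak1 (0.50, adjusted p = 0.000788) rose with restimulation. Bcl2 (-2.72, adjusted p = 2.6e-06), Bbc3 (-2.41, adjusted p = 2.66e-05), Bmf (-1.44, adjusted p = 0.0182), Bid (-1.10, adjusted p = 0.00111) and Bax (-0.44, adjusted p = 0.00395) fell. The 6.57-fold lower Bcl2 and the 5.33-fold lower Bbc3 were the members' largest changes in this contrast. Of all genes, 61.3% were called (29.8% higher, 31.5% lower), close to the 7 of 10 members, and the median log2 change was -0.25 beside -0.03. The call of Bmf ended without ATRA replicate 2 or restimulated ATRA replicate 2 or 3 (adjusted p = 0.0712 to 0.0765). Groups did not overlap for 7 members in each contrast, against 51.5% of genes in CTRL and 67.1% in ATRA. The other members did not pass. In CTRL these were Mcl1 at -0.29 (adjusted p = 0.0595), Bax at -0.13 (adjusted p = 0.367), Bcl2l11 at -0.45 (adjusted p = 0.260) and Bid at 0.00 (adjusted p = 0.997). In ATRA they were Bcl2l1 at -0.04 (adjusted p = 0.798), Mcl1 at 0.16 (adjusted p = 0.223) and Pmaip1 at -0.07 (adjusted p = 0.811). The interaction given for each gene above is the test of the difference between its 2 changes, and that of Bmf was 0.35 (SE 0.67, adjusted p = 0.695).

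**Figure D4:**
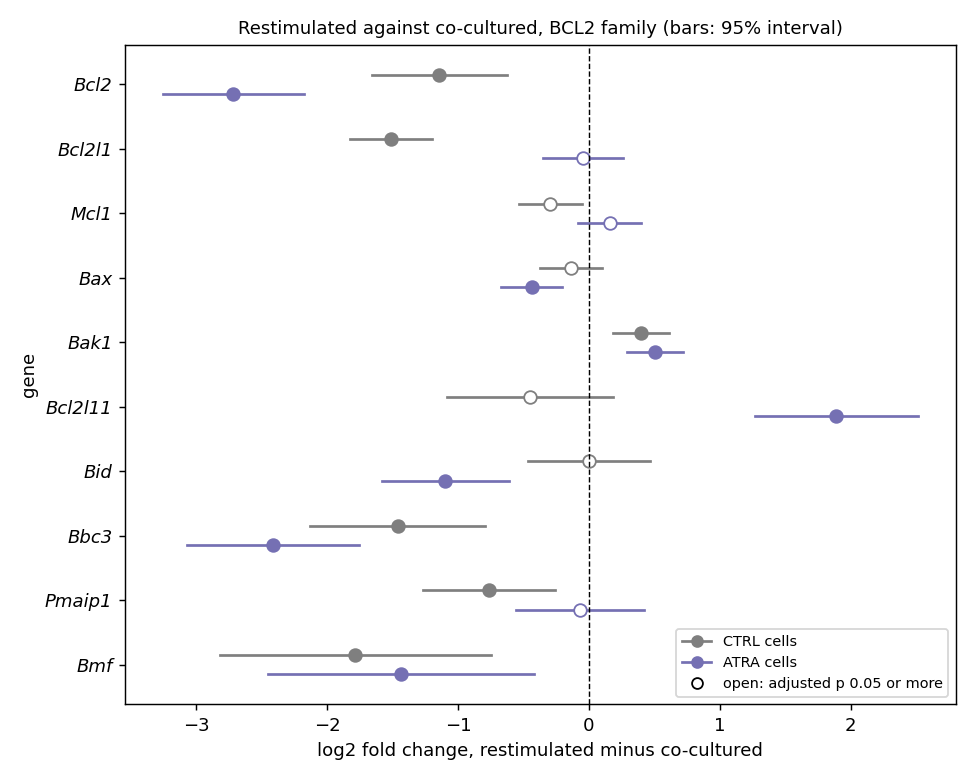
Log2 change with restimulation in CTRL and in ATRA for each member, with 95% intervals and filled points for calls; state, batch set and count table cannot be told apart. Bak1 lies above 0 in both (0.40 and 0.50), while Bcl2, Bbc3 and Bmf lie below 0 in both.

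On a CPM scale common to the 12 libraries, the order of the groups differed from gene to gene. Bcl2 was lowest in restimulated ATRA (22.6 CPM), then restimulated CTRL (29.1), CTRL (64.3) and ATRA (148), with no overlap between neighbours. Bbc3 was likewise highest in ATRA (5.26 CPM) and next in CTRL (2.46), while the restimulated groups overlapped (0.889 in CTRL and 0.981 in ATRA). For Bcl2l1, restimulated CTRL stood below the rest (32.4 CPM), and restimulated ATRA, ATRA and CTRL overlapped their neighbours (74.5, 76.8 and 92.1). For Bcl2l11 the single group apart was restimulated ATRA at the top (20.8 CPM, the others 4.15 to 5.69), and for Bid it was the same group at the bottom (3.42 CPM, the others 7.32 to 7.88). Pmaip1 was lowest in restimulated CTRL (6.47 CPM), below 3 overlapping groups at 11.0 to 12.1. Mcl1 ran from 67.1 CPM in restimulated CTRL to 89.3 in restimulated ATRA, and every neighbour overlapped. Bak1 was lower before restimulation (76.1 CPM in ATRA, 79.7 in CTRL) than after it (105 in CTRL, 108 in ATRA). Bax stood at 118 CPM in restimulated CTRL, 122 in restimulated ATRA, 130 in CTRL and 165 in ATRA, and only ATRA was clearly apart. Bmf was at 1.06 CPM in ATRA and 1.18 in CTRL before restimulation, and at 0.338 in CTRL and 0.392 in ATRA after it.

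Apart from the ratio of Bcl2 to Bcl2l11 counts above, levels of different members were compared only as TPM. This measure is scaled to transcript length and was deposited for the restimulated libraries. Bax (209 ± 18.5 TPM in CTRL, 233 ± 8.25 in ATRA), Mcl1 (144 ± 17.1 and 211 ± 4.41) and Bak1 (64.3 ± 2.69 and 71.1 ± 4.67) were the most abundant in both groups (SD, n = 3 each). Bcl2l1 followed in both, at 29.6 ± 1.22 TPM in CTRL and 68.7 ± 6.08 in ATRA, where it overlapped Bak1. Bcl2l11 ranked 8 of 10 in CTRL (3.20 ± 1.16 TPM) and 5 of 10 in ATRA (20.6 ± 2.00), and Bcl2 ranked 5 in CTRL (10.7 ± 1.54) and 7 in ATRA (9.68 ± 0.126). Thus Bcl2l11 lay below Bcl2 in restimulated CTRL and above it in restimulated ATRA by this measure. Pmaip1 was at 9.14 ± 1.23 and 16.7 ± 1.48 TPM, and Bid, Bbc3 and Bmf were below 6 in both groups.

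For the 2 members with the smallest interaction p, Bcl2l1 and Bcl2l11, the genes with the most similar profile over the 12 libraries were listed by the root mean square difference of centred log2 CPM. For Bcl2l1 (SD over libraries 0.62) they were Zbtb32 at 0.148, Plod3 at 0.160 and Kcnk5 at 0.168. Zbtb32, a transcriptional repressor of lymphocytes, averaged 70.6 CPM in restimulated CTRL and 176 to 238 in the other groups. For Bcl2l11 (SD 1.00) they were Atf6 at 0.305, Dpy19l3 at 0.307 and Dnajb9 at 0.308. Atf6, a sensor of unfolded protein in the endoplasmic reticulum, averaged 203 CPM in restimulated ATRA and 46.2 to 70.8 in the other groups, and Dnajb9, a chaperone of that compartment, 109 CPM against 32.0 to 41.5. The 3 nearest genes were taken by rank, so that 3 would be named for any gene.

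Among 15 other genes of the BCL2 family, 12 were tested before restimulation, with 3 higher and 2 lower in ATRA (all genes, 33.6% called), and 11 after it, with 4 higher and 3 lower (all genes, 62.6%). The lower calls before restimulation were the antiapoptotic Bcl2a1d (-2.30, adjusted p = 0.000682) and Bcl2a1b (-1.18, adjusted p = 0.00923). After restimulation the same copies were higher (0.79, adjusted p = 3.4e-07, and 0.66, adjusted p = 1.7e-06), as was Bcl2a1a (2.86, adjusted p = 0.000139, and 2.10 on the log2(TPM + 1) scale). The interaction of Bcl2a1d was 3.08 (adjusted p = 1.7e-07). Its level was 374 ± 86.5 CPM in CTRL and 75.9 ± 3.41 in ATRA, and after restimulation 217 ± 9.82 in CTRL and 375 ± 4.57 in ATRA (SD, n = 3 each). The Bcl2a1 copies are nearly identical, so the split of reads among them is uncertain. The mitophagy receptors Bnip3 (1.53, adjusted p = 0.00266) and Bnip3l (1.27, adjusted p = 0.0205) were higher in ATRA before restimulation, and Bnip3l was lower after it (-0.48, adjusted p = 0.000123). The call of Bnip3l before restimulation ended without CTRL replicate 1, 2 or 3 (adjusted p = 0.0523 to 0.0815). The median log2 fold change of the list was -0.15 before and -0.06 after.

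Downstream of the mitochondria, 18 genes of caspases, their inhibitors and the apoptosome were tested, with 2 higher and 3 lower in ATRA before restimulation and 3 higher and 8 lower after it, near the 33.6% and 62.6% of all genes. The medians were -0.03 and -0.24. Before restimulation Apaf1, the apoptosome scaffold, was higher (0.83, adjusted p = 0.0205). After it, Birc5, which encodes survivin and is expressed mainly in dividing cells, was lower (-3.06, adjusted p = 1.1e-09) and Casp6 was higher (1.45). Among 9 genes of the death receptor pathway, 2 were higher and 1 lower before restimulation, and 5 higher and 1 lower after it (medians 0.09 and 0.48), again near the shares of all genes. Fas was higher (1.40, adjusted p = 0.0112) and its ligand Fasl lower (-1.39, adjusted p = 0.0189) before restimulation. After it, Cflar, an inhibitor of caspase-8 (2.13, adjusted p = 7.8e-10), Tnfrsf10b (1.37) and Casp8 (0.75) were higher, and Fasl was lower (-0.96). Before restimulation the calls of Apaf1 (adjusted p = 0.0533 to 0.0813) and Fasl (adjusted p = 0.0544 to 0.0600) ended without CTRL replicate 1, 2 or 3, that of Fasl also without ATRA replicate 2 (adjusted p = 0.0520), and that of Fas without CTRL replicate 2 (adjusted p = 0.0516) or 3 (adjusted p = 0.0506).

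Of 18 regulators of the members, 5 were higher and 2 lower in ATRA before restimulation, and 8 were higher and 5 lower after it (medians 0.03 and 0.14), beside 33.6% and 62.6% of all genes called. The forkhead factors that act on Bcl2l11 and Bbc3 were among those higher before it. Foxo1 averaged 44.3 ± 6.78 CPM in CTRL and 165 ± 70.4 in ATRA (log2 fold change 1.89, adjusted p = 0.00613), and Foxo3 38.0 ± 3.34 and 200.4 ± 95.8 CPM (2.40, adjusted p = 0.00377). After restimulation Foxo1 was at 44.5 ± 7.88 CPM in CTRL and 121 ± 6.89 in ATRA (1.44), and Foxo3 at 45.0 ± 9.47 and 49.7 ± 3.87 CPM (SD, n = 3 each). The Foxo3 interaction, singled out after its value was seen, was -2.27 (adjusted p = 0.000547). Ddit3, which encodes the stress factor CHOP, was higher in ATRA both before (0.96, adjusted p = 0.00878) and after restimulation (2.99, adjusted p = 4.3e-07). Fbxw7, a subunit of a ligase that marks MCL1 for degradation, was lower before (-1.12, adjusted p = 0.00261) and higher after restimulation (1.23), with an interaction of 2.34. Trp73, a relative of p53, was lower after restimulation (-6.39, adjusted p = 1.3e-07). It had only 1 to 9 counts a library in restimulated ATRA (307 to 408 in CTRL), and the value was -7.24 without ATRA replicate 2 and -4.10 on the log2(TPM + 1) scale.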

How the data were processed

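RNA was sequenced from 12 libraries, 3 in each of 4 groups assigned by the sample titles. The authors deposited whole-number counts per gene symbol in 1 table per state, and TPM (abundance scaled to transcript length and library) for the cells sorted after restimulation. The submitters' processing notes name Salmon 1.10.3, STAR 2.7.11b, DESeq2 1.42.1, cutadapt 5.0 and build mm39. The role of each, the strand setting and the annotation are not stated there or in the labels. The authors' count table before restimulation held 13948 rows, none of which summed to under 10. The one after it held 35588 rows, 32 of which repeated a symbol, and the row with the largest total was kept. The headings of the TPM table differ from the labels and show the treatment alone, so its columns were used as replicates without numbers.

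Counts were tested with edgeR 4.0.16 in R 4.3.3 (TMM scaling, filterByExpr, robust quasi-likelihood test), with Benjamini-Hochberg adjustment over all genes tested and a threshold of 0.05. Each state was fitted in its own table. The interaction and the restimulation changes came from 1 fit of all 12 libraries over shared symbols. Alternatives were DESeq2 1.42.0, RLE scaling, no filter, a batch block, leaving out libraries and limma 3.58.1 on log2(TPM + 1) and log2(TPM + 0.1). The fitting code was run on simulated counts with the same dispersion for every gene and no batch or outlying library. That run does not check the fits under the spread seen in these libraries. Same-numbered CTRL and ATRA libraries share a batch in the labels (6 batches, 3 per state), which pairs them; their deviations from group means correlated at -0.10 to 0.13. No 2 libraries of a group agreed within sampling noise (lowest chi-square per degree of freedom 3.76).

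The lowest total makes 3 counts equal to 0.184 CPM, a floor for counting error only. All members were named, and from each other list at most the 4 called genes with the smallest p per comparison. Beyond this rule, Foxo3 was followed into the other state and Trp53 was added. 1 gene that this rule names is not reported here. The members and lists were chosen with earlier results of these data known, and the motifs after the members' values had been seen.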

Additional observations from a re-analysis of the deposited data

Results flagged for a closer look

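For 5 members the ATRA effect differed between the states by the interaction term of edgeR (adjusted p under 0.05), which picked them out here. The difference, as the log2 effect after minus that before restimulation, was -1.57 for Bcl2, 1.46 for Bcl2l1, 0.46 for Mcl1, 2.34 for Bcl2l11 and -1.10 for Bid. That of Mcl1 was the smallest of the 5.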

How the results depend on the processing

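Of 708 values of single members under alternatives, 634 kept their direction and their side of the threshold, 32 lost the call and 10 gained it. The other 32 turned sign, in 11 results that passed the threshold in neither analysis. Over the settings that left out libraries, log2 values before restimulation ran from -0.16 to 0.024 for Mcl1, -0.14 to 0.0093 for Bak1, -0.25 to 0.17 for Bcl2l11, -0.25 to 0.081 for Bid and -0.18 to 0.29 for Pmaip1. After restimulation they ran from -0.0032 to 0.092 for Bax and -0.0085 to 0.086 for Bak1. The interaction of Bmf ran from -0.11 to 0.75. With restimulation, Bid in CTRL ran from -0.16 to 0.11, and in ATRA Bcl2l1 from -0.13 to 0.017 and Pmaip1 from -0.23 to 0.26. Bid in CTRL was also -0.0010 with DESeq2, -0.0011 with RLE scaling and -0.0023 without the filter. Before restimulation, the 2 members called higher became 0 with the batch as a replicate block, which pairs same-numbered libraries (2892 of all genes called against 4071 without it). They were 0 to 3 on leaving out 1 library, the 3 being without ATRA replicate 3. The 0 members called lower became 1 (Bcl2l1) without CTRL replicate 1 and ATRA replicate 3, which keeps the most alike libraries of each group. After restimulation, the 2 called lower became 1 on log2(TPM + 1) and 1 on log2(TPM + 0.1), and 1 to 2 without 1 library. The 5 members lower with restimulation in CTRL were 3 to 6 without 1 library. The replicate block also ended the interaction call of Mcl1 and changed no other member's call beyond those of Bcl2 and Bbc3 before restimulation. It could not be fitted to the restimulation changes, because batches are nested in state. Mcl1 was called lower with restimulation in CTRL by DESeq2 (adjusted p = 0.0377), and higher in ATRA without ATRA replicate 3 (0.29, adjusted p = 0.0119). Before restimulation, counts called in the other lists moved by over 1.5 times, among them caspase genes higher (0 to 4) and lower (1 to 6) and death receptor genes higher (0 to 3). Low counts limit Bbc3 after restimulation and Bmf in both states.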
